A study of Homo sapiens with 120 samples.

Results

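Proliferative microrafts from cultures labelled with 5 nM gemcitabine were compared with proliferative microrafts from cultures labelled with 2 nM gemcitabine, and the 16 libraries of these 2 groups (8 each) were taken from the 120 libraries of the study by their labels for treatment and proliferation. The fits behind the limma p-values drew their spread from all 8 groups of the gemcitabine experiment. These were proliferative and nonproliferative microrafts, each untreated or given saline, 2 nM or 5 nM gemcitabine. Each library was made from total RNA of CFPAC-1, an established human cell line of pancreatic ductal adenocarcinoma, on a microraft, a small releasable culture element of an array from which cells can be picked. The labels give the number of cells on these rafts as unknown, and name no genetic change in any group. They do not say what was scored to call a raft proliferative, how long the drug was applied, or whether rafts of a dose came from separate cultures, so every p-value measures only the spread between rafts. Index pairs repeat between the doses, so libraries that share a pair cannot have been in the same pool. The labels name no pool. If each dose was pooled on its own, dose and pool cannot be told apart.

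Gemcitabine is an analog of deoxycytidine. Nucleoside carriers such as SLC29A1 bring it into the cell, deoxycytidine kinase (DCK) adds the first phosphate, CMPK1 the next, and cytidine deaminase (CDA) inactivates it. The diphosphate inhibits ribonucleotide reductase, whose subunits are RRM1 and RRM2, and the triphosphate is built into DNA, where it blocks chain growth in S phase. Stalled forks signal through checkpoint kinases, and cells may stop dividing, repair or die.

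The libraries differed more within a dose than between doses. A gene was called detected at 1 or more FPKM, fragments per kilobase of transcript scaled to the size of the library. At 2 nM the rafts held 472 to 10206 detected genes, with a median of 4683.5, and at 5 nM they held 334 to 10075, with a median of 3065. The 2 ranges overlapped over nearly their whole length. The mean difference of -978.4 genes (5430 ± 3668 at 2 nM and 4452 ± 3762 at 5 nM, SD, n = 8 each) had an exact two-sided permutation p of 0.598. Spearman rho with the mean of the 4 bulk libraries, taken across 10767 genes, ran from -0.031 to 0.789 at 2 nM and from -0.022 to 0.705 at 5 nM. Its mean differed by -0.154 (0.474 ± 0.303 and 0.319 ± 0.276, SD, n = 8 each), with an exact permutation p of 0.290. Adjusted over these 2 tests the p-values were 0.598 and 0.580. Replicates 7 and 8 at 2 nM and replicates 5, 7 and 8 at 5 nM had rho between -0.031 and 0.109, within the range of the 7 libraries made from water (-0.038 to 0.198, with 81 to 2097 genes). Without counts in the table the depth behind these values is not known, and intervals for counting error were not computed.

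**Figure D1:**
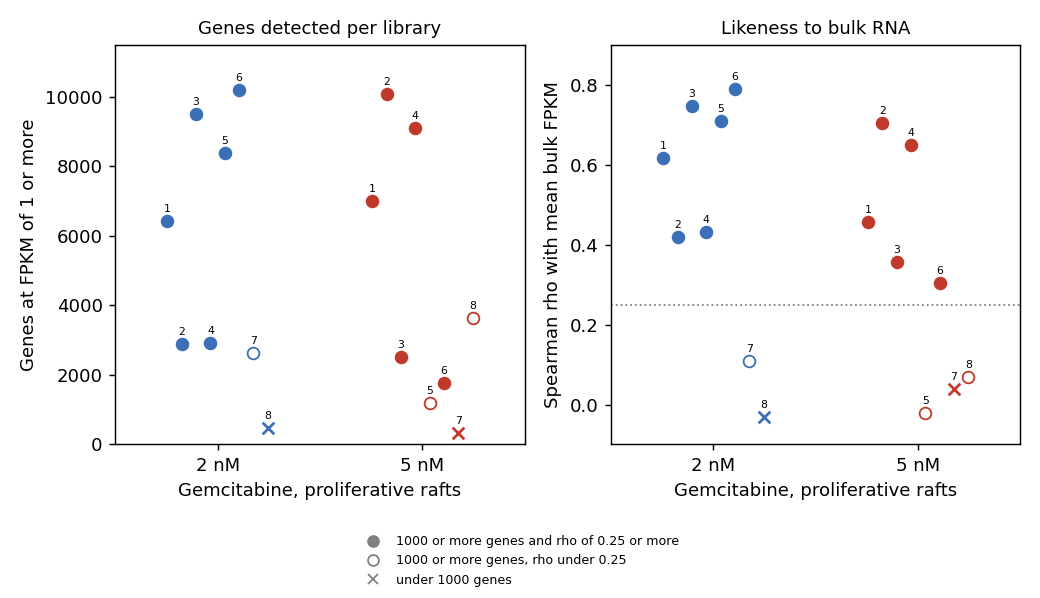
Genes at FPKM of 1 or more (left) and Spearman rho with mean bulk FPKM (right) for each of the 8 proliferative rafts at 2 nM (blue) and the 8 at 5 nM (red), numbered by replicate. Filled circles mark rafts with 1000 or more genes and rho of 0.25 or more (dotted line), open circles rafts with 1000 or more genes only, and crosses the 2 rafts under 1000 genes (472 and 334); the doses overlap in both measures.

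These values set which rafts were compared, in 2 sets. The wider set held rafts with 1000 or more genes, 7 at each dose, without 2 nM replicate 8 and 5 nM replicate 7. The narrower set also required rho of 0.25 or more, and held replicates 1 to 6 at 2 nM (n = 6) and replicates 1, 2, 3, 4 and 6 at 5 nM (n = 5). Keratins of simple epithelium, which a ductal line should express, were found in most rafts of both doses. KRT8 was detected in 7 of 8 rafts at 2 nM (median 1354 FPKM) and in 6 of 8 at 5 nM (median 407.1), and KRT18 in 7 of 8 at each dose (medians 2768 and 485.6). EPCAM, a surface protein of epithelia, was detected in 5 and 4 rafts, and CDH1, which joins epithelial cells, in 4 and 3. CFTR, the chloride channel of ducts, was listed at 0 in all 16 rafts and in bulk. Of markers of other cells, PECAM1 (endothelium) was listed at 0 in all 16 rafts, PTPRC (blood) reached 1.30 FPKM in 1 raft, and COL1A1 (fibroblasts) at most 1.65 FPKM. Other members of those lists were detected in the wider set: CD68, a macrophage protein that other cells also make, in 5 of 7 rafts at 2 nM and 4 of 7 at 5 nM, PDGFRA, a receptor for platelet-derived growth factor, in 5 and 4, and ESAM, an endothelial adhesion protein, in 2 and 1. KRT10, a keratin of skin, stood between 75.9 and 452.3 FPKM in the narrower set and between 103.2 and 174.3 FPKM in bulk.

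In the wider set, PPDPF was higher at 5 nM and WDR4 was lower, and these were the 2 of 11560 tested genes (0.0173%) with an adjusted p under 0.05 in limma. PPDPF, named for a role in growth of the exocrine pancreas, was listed at 0 in 7 of 8 rafts at 2 nM and at 1.81 FPKM in replicate 3. The 5 nM rafts gave 86.3, 39.99, 184.65, 65.7, 40.95 and 121.2 FPKM in replicates 1, 2, 3, 4, 6 and 8, and at 0 in replicates 5 and 7. Every 5 nM raft with a value above 0 thus lay above every 2 nM raft. The difference on the log2(FPKM + 1) scale, which understates changes of low genes, was 5.18 (SE 1.09, adjusted p = 0.0266, limma). PPDPF was also listed at 0 in all 4 bulk libraries. The gene model behind its row could not be checked here, so what its values and zeros count is uncertain. Of the controls, saline-treated proliferative rafts reached 11.0 FPKM, with the gene detected in 5 of 8.

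WDR4 is the partner of the METTL1 enzyme that methylates guanosine in transfer RNA. It was listed at 0 in all 8 rafts at 5 nM. At 2 nM it stood at 35.0, 176.4, 23.6, 48.55, 7.06 and 2697 FPKM in replicates 1, 2, 3, 5, 6 and 7, and at 0 in replicates 4 and 8. The highest value came from replicate 7, whose rho with bulk was 0.109. The difference was -5.33 (SE 1.05, adjusted p = 0.0143, limma) in the wider set and -4.32 (SE 1.14, adjusted p = 0.276) in the narrower set, which lacks that replicate. It had an adjusted p of 0.136 after quantile normalization. Saline-treated proliferative rafts gave 0 to 53.5 FPKM, with a median of 3.20.

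Neither call rested on all rafts alike. WDR4 lost its call without 2 nM replicate 2 (adjusted p = 0.0637) or replicate 7 (0.0858). PPDPF kept its call without 2 nM replicate 3 or 4 or 5 nM replicate 5 or 6, and lost it without any other single raft (2 nM replicates 1, 2, 5, 6 and 7 and 5 nM replicates 1, 2, 3, 4 and 8), with adjusted p of 0.0503 to 0.131. Both genes were detected in too few of these rafts to be tested in a fit of the 2 dose groups alone, in which no gene passed. With an unadjusted p under 0.05 there were 643 of 11560 tested genes in the fit of all 8 groups, 126 of them higher and 517 lower at 5 nM. That is close to the share of 0.05 expected by chance. In 3 genes (0.026%) the 2 groups did not overlap, and all 3 were lower at 5 nM. These were NDUFAB1, a subunit of respiratory complex I, RAC2, a small GTPase, and WWTR1, the transcription coactivator also called TAZ.

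Other genes with small p-values in the wider set did not pass and are given as values. C10orf10 differed by 4.66 (adjusted p = 0.239), the oxidoreductase DHDH by 2.31 (0.604), the aldehyde dehydrogenase ALDH3A1 by 4.52 (0.604) and ATF3 by 4.05 (0.604). On the lower side, MCCC1 of leucine breakdown differed by -3.86 (adjusted p = 0.523), LRRC42 by -4.56 (0.551) and the nucleotide hydrolase NUDT2 by -3.22 (0.644), all by limma.

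In the narrower set, PPDPF, C10orf10 and ATF3 were higher at 5 nM, and HSPA8 and PFN1 were lower. They were 5 of 10083 tested genes (0.0496%), and PPDPF was the 1 gene that passed in both sets. C10orf10, now called DEPP1, is a target of FOXO transcription factors in starved or stressed cells. HSPA8 is the heat shock cognate protein, an abundant chaperone of the HSP70 family. The 250 bases before the RefSeq start site of these 2 genes are shown because they hold a FOXO site and heat shock element units, respectively. The genes and sites were chosen after the values were seen. Capitals mark GTAAACA, a FOXO site, in C10orf10 and the heat shock element units GAANNTTC and TTCNNGAA, which overlap here, in HSPA8.
C10orf10: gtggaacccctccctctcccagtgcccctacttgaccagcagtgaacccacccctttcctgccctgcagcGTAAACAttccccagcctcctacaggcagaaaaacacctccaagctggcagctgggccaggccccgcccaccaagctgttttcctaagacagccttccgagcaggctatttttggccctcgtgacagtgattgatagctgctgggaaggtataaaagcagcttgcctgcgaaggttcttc
HSPA8: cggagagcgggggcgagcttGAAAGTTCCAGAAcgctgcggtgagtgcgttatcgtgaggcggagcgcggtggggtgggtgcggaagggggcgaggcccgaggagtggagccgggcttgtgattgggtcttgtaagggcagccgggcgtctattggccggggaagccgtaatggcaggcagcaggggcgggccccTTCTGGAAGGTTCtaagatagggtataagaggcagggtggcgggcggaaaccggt

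The sequences come from RefSeq on GRCh38.p14, which is not the build of the deposited table, at chr10:44978810-44979059 and chr11:123062137-123062386, both on the minus strand. The FOXO site starts 180 bases before the start site of C10orf10, and the 2 runs of heat shock units start 230 and 55 bases before that of HSPA8. On either strand, GTAAACA stands in 2.98% of 35116 promoter windows of this length and at least 1 of the heat shock units in 11.6%. Among the 6 genes that passed in either set, all of which had a RefSeq promoter, GTAAACA was found in 1 and a heat shock unit in 2, HSPA8 and C10orf10, where the unit is left in lower case. The cyclic AMP response element TGACGTCA, which ATF family proteins bind, was found in none of the 6 and in 1.65% of all windows.

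C10orf10 was listed at 0 in all 8 rafts at 2 nM. The 5 nM values were 201.3, 17.2, 123.8, 46.4 and 307.2 FPKM in replicates 1, 2, 3, 4 and 6. It was thus above every 2 nM raft in all 5 rafts of the narrower set, and it was listed at 0 in replicates 5, 7 and 8. The difference was 6.53 (SE 1.35, adjusted p = 0.0347, limma), and the adjusted p was 0.0781 after quantile normalization. In saline-treated proliferative rafts it was detected in 3 of 8 and reached 34.9 FPKM.

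ATF3, a transcription factor induced by many kinds of cell stress, was listed at 0 in 7 of 8 rafts at 2 nM and at 32.4 FPKM in replicate 6. At 5 nM it stood at 656.2, 289.7, 346.6 and 167.5 FPKM in replicates 1 to 4 and was listed at 0 in the other 4. The first 4 rafts lay above every 2 nM raft, while replicate 6, also in the narrower set, lay below 2 nM replicate 6. The difference was 5.83 (SE 1.25, adjusted p = 0.0396, limma). Saline-treated proliferative rafts listed it at 0 in 7 of 8, and bulk reached 0.91 FPKM.

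HSPA8 stood at 1146, 931.3, 327.8, 318.9, 1140 and 594.2 FPKM in 2 nM replicates 1 to 6. The 5 nM rafts of the narrower set gave 92.1, 246.1 and 46.6 FPKM in replicates 1, 2 and 4 and 0 in replicates 3 and 6. The groups did not overlap, and the difference was -5.33 (SE 0.99, adjusted p = 0.0102, limma). Outside the narrower set HSPA8 was at 2753 FPKM in 2 nM replicate 7 and at 0 in 2 nM replicate 8. It was at 0 in 5 nM replicate 5, at 476.8 FPKM in replicate 8 and at 24052 FPKM in replicate 7. Water libraries gave 914.3 and 142.6 FPKM in 2 of 7 and 0 in the others. In the wider set the difference was -5.51 (SE 2.12, adjusted p = 0.789).

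PFN1, profilin, which feeds monomers to growing actin filaments, stood at 5311, 3676, 1547, 3651, 2702 and 2585 FPKM in 2 nM replicates 1 to 6. It stood at 88.0, 985.2, 912.55, 514.7 and 1073 FPKM in the 5 nM rafts of the narrower set, all below the lowest of the 2 nM rafts. The difference was -2.50 (SE 0.53, adjusted p = 0.0396, limma). PFN1 had the smallest difference of the 5 genes and was detected in every raft of the narrower set. In the wider set it differed by -4.11 (SE 2.35, adjusted p = 0.910), with 25.2 FPKM in 2 nM replicate 7 and 0 in 5 nM replicates 5 and 8.

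**Figure D2:**
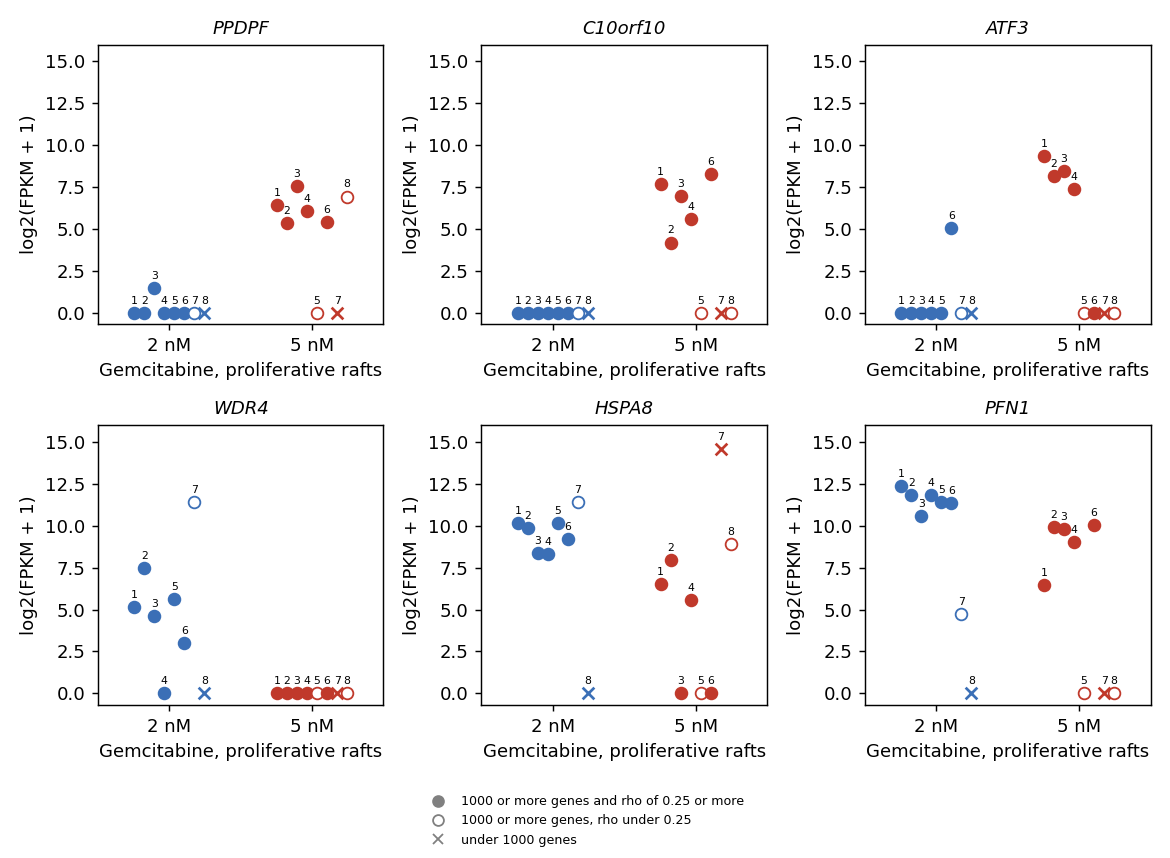
log2(FPKM + 1) of the 6 genes that passed in either set, for each proliferative raft at 2 nM (blue) and 5 nM (red), numbered by replicate; filled circles are the narrower set, open circles belong to the wider set only, crosses to neither. C10orf10 is at 0 in all 2 nM rafts, WDR4 at 0 in all 5 nM rafts, and HSPA8 is highest in 5 nM replicate 7 (24052 FPKM), which entered neither set.

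The calls of the narrower set also turned on single rafts. Without 5 nM replicate 3, which had 2506 genes, no gene passed, and PPDPF and HSPA8 kept their calls without any other single raft (adjusted p without replicate 3 of 0.0506 and 0.0562). C10orf10 passed only without 5 nM replicate 2 or 4, ATF3 only without 2 nM replicate 6 or 5 nM replicate 6, and PFN1 only without 2 nM replicate 3 or 5 nM replicate 2 or 6. Leaving out any other single raft of the set gave adjusted p of 0.0562 to 0.0939 for C10orf10, 0.0694 to 0.226 for ATF3 and 0.0506 to 0.377 for PFN1. An exact permutation test per gene, which cannot go below 0.00216 for 6 against 5, left no gene past the threshold after adjustment. With that floor a gene could pass only together with many others. Among the alternatives that tested it, other than leaving out a raft, PPDPF passed in 8 of 10, HSPA8 and PFN1 each in 7 of 12, ATF3 in 5 of 8 and C10orf10 in 2 of 9.

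Among the next genes by p-value in the narrower set, given as values, SLC12A4, a potassium chloride carrier, differed by 3.16 (adjusted p = 0.276) and DHDH by 3.27 (0.222). RAN, the GTPase of nuclear transport, differed by -4.53 (adjusted p = 0.222), with 571.0 to 1220 FPKM in the 2 nM rafts of the set and 301.7, 659.7, 0, 551.75 and 0 FPKM at 5 nM. XRCC6, the Ku70 subunit that binds broken DNA ends, differed by -5.54 (adjusted p = 0.276). It stood at 171.3 to 858.5 FPKM at 2 nM, against 170.2 and 146.4 FPKM in 5 nM replicates 2 and 4 and 0 in the other 3. ADH5, which clears formaldehyde, differed by -5.22 (adjusted p = 0.276, limma).

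In 63 genes of the narrower set (0.625%) the doses did not overlap, 13 of them higher and 50 lower at 5 nM. Of the 50, 4 belong to the oxidative phosphorylation list of 56 tested genes (NDUFA8, NDUFA7, UQCRH and ATP5L), 2 to the heat shock list (HSPA8 and the mitochondrial chaperonin HSPD1) and 2 to the ribosomal protein list. HMGA1, a chromatin protein abundant in carcinomas, was among the 13 on the higher side. It stood at 173.4 to 401.3 FPKM in the 2 nM rafts and at 1401, 408.6, 1458, 697.2 and 1502 FPKM in the 5 nM rafts, a difference of 2.02 (SE 1.00, adjusted p = 0.766, limma). Outside this set it was at 1419 FPKM in 2 nM replicate 7 and at 58.0 and 532.9 FPKM in 5 nM replicates 5 and 8.

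Over all genes tested the median difference was -0.30 in the wider set and -0.22 in the narrower set, and 0.03 in both after quantile normalization. Of all genes tested, 7114 were lower and 4420 higher at 5 nM in the wider set, and 5857 and 4219 in the narrower set. Lists of genes are therefore to be read beside these medians and counts. Genes at 100 FPKM or more in bulk had a median of -1.66 (1156 genes) and -0.97 (1155 genes), and genes under 1 FPKM in bulk 0.25 and 0.19. Across genes the difference had a Spearman rho with the mean bulk level of -0.46 in the wider set and -0.29 in the narrower set, and with the GC content of the transcript of 0.01 and 0.03. Genes share these libraries and are not replicates. The part of the abundance relation in the list medians below was not tested. In the narrower set the median over all genes turned to 0.01 without 5 nM replicate 3 and to 0.06 without 5 nM replicate 6.

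Of the 15 tested genes of the gemcitabine transport and metabolism list, none passed in either set. Besides genes that handle the drug, the list holds RRM1, RRM2 and TYMS, described below, and other deoxynucleotide enzymes such as TK1 and DUT. The median over the list was -2.04 in the wider set, with 13 lower and 2 higher. It was -1.82 in the narrower set, with 14 lower and 1 higher. Quantile normalization gave medians of -1.23 and -1.03. CDA, which inactivates the drug, stood at 162.0 to 630.0 FPKM in 2 nM replicates 1 to 6 and at 28.6, 398.5, 0, 103.3 and 2.24 FPKM in 5 nM replicates 1, 2, 3, 4 and 6. It differed by -3.90 (SE 1.56, adjusted p = 0.595, limma) in the narrower set, where the doses overlapped through 5 nM replicate 2.

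DCK, the kinase that starts activation, was at 20.6, 5.83, 8.38 and 27.6 FPKM in 2 nM replicates 1, 3, 5 and 6, at 10.2 FPKM in 5 nM replicate 2 and at 0 in all other rafts. Its difference was -1.68 (adjusted p = 0.929) in the wider set and -1.85 (0.904) in the narrower set, by limma. CMPK1 differed by -3.51 (adjusted p = 0.652) in the narrower set, with 39.3 to 103.3 FPKM in all 6 rafts at 2 nM. Only 5 nM replicates 2 and 4 came within that range, at 88.1 and 49.8 FPKM, while replicate 6 gave 0.62 FPKM and replicates 1 and 3 gave 0. The carrier SLC29A1 was detected in 3 rafts at each dose and differed by -0.06 (adjusted p = 0.997) there, with a sign that changed under other scalings. NT5C, a nucleotidase that removes the first phosphate, differed by -0.80 (0.976).

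None of the 3 genes of deoxynucleotide synthesis that the drug acts on or beside passed in either set. RRM1 stood at up to 80.9 FPKM at 2 nM, detected in 5 of 8 rafts, and at 2.33, 58.1 and 4.93 FPKM in 5 nM replicates 1, 2 and 4. It differed by -2.57 (SE 1.57, adjusted p = 0.850) in the narrower set. RRM2 differed by -2.02 (SE 1.64, adjusted p = 0.922), and its highest value of all 16 rafts, 245.6 FPKM, came from 5 nM replicate 2. TYMS, which makes thymidylate, differed by -0.54 (SE 1.56, adjusted p = 0.986, limma).

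Cell cycle genes did not pass in either set. Of 54 tested G1/S genes the medians were -1.08 (50 lower, 4 higher) and -0.84 (46 lower, 8 higher), and of 59 G2/M genes -0.84 (52 lower, 7 higher) and -0.66 (44 lower, 15 higher). Quantile normalization gave -0.53 and -0.58 for G1/S and -0.36 and -0.29 for G2/M. CCNB1, the cyclin of mitotic entry, stood at 87.0 to 305.4 FPKM in all 6 rafts of the narrower set at 2 nM and at 122.45, 129.97, 0, 56.6 and 0 FPKM at 5 nM, a difference of -3.27 (SE 1.64, adjusted p = 0.767). Its kinase CDK1 differed by -0.36 (0.993), MKI67 by -0.14 (0.995) and the topoisomerase TOP2A by -1.04 (0.976). CDK1 and MKI67 changed sign after quantile normalization, at 0.05 and 0.25.

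PCNA, the sliding clamp of replication, differed by -3.12 (SE 1.73, adjusted p = 0.804, limma) in the narrower set. It was detected in 7 of 8 rafts at 2 nM, up to 202.4 FPKM. At 5 nM it was at 72.4, 183.2 and 3.83 FPKM in replicates 1, 2 and 4, and its highest value, 907.25 FPKM, was in replicate 8. Thus 5 nM replicates 1 and 2 had all 7 of RRM1, RRM2, PCNA, MKI67, TOP2A, CDK1 and CCNB1 above 0, and replicate 2 exceeded every 2 nM raft in RRM2 and MKI67, while replicates 3 and 6, with 2506 and 1759 genes, listed all 7 at 0.

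**Figure D3:**
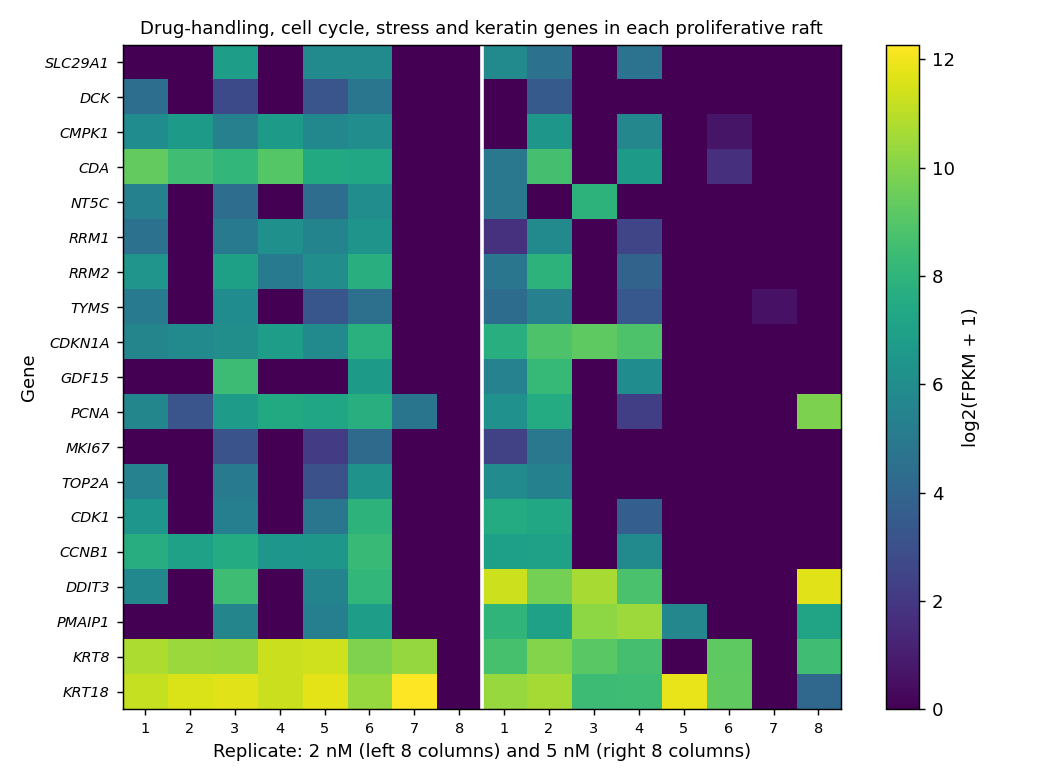
Heat map of log2(FPKM + 1) of 19 genes (rows: drug handling, drug targets, p53 targets, cell cycle, stress and keratins) in the 8 rafts at 2 nM (left) and the 8 at 5 nM (right), dark cells at 0. DDIT3 and PMAIP1 are brightest at 5 nM, where DDIT3 reaches 3370 FPKM in replicate 8, and keratins are detected in most rafts of both doses.

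The list of the unfolded protein and integrated stress responses holds chaperones of the endoplasmic reticulum and genes induced when phosphorylation of eIF2 slows translation. It stood higher at 5 nM in 12 of 19 tested members in the wider set (median 0.18) and in 16 of 19 in the narrower set (median 0.60), with quantile normalized medians of 0.39 and 0.85. ATF3 was the 1 member that passed, in the narrower set. DDIT3, the factor CHOP, was at 51.6, 346.9, 46.1 and 274.5 FPKM in 2 nM replicates 1, 3, 5 and 6 and at 0 in the other 4. At 5 nM it was at 2597, 842.4, 1647, 431.9 and 3370 FPKM in replicates 1, 2, 3, 4 and 8 and at 0 in the other 3. All 5 detected values at 5 nM lay above the highest at 2 nM, and the difference was 3.49 (SE 1.62, adjusted p = 0.883) in the wider set and 3.46 (SE 1.82, adjusted p = 0.774) in the narrower set, by limma. PPP1R15A, which restores translation by dephosphorylating eIF2, was at 1797, 134.0, 206.7 and 21.9 FPKM in 5 nM replicates 1, 2, 4 and 6. Its 2 nM values ran up to 42.8 FPKM in replicates 1 to 7 and stood at 660.8 FPKM in replicate 8, which has 472 genes. The 3 members on the lower side in the narrower set were SDF2L1 at -1.06 (adjusted p = 0.976), TRIB3 at -0.72 (0.978) and HSPA5 at -0.28 (0.995), by limma. In the wider set, where 7 members were lower, these differed by -1.51, -2.82 and -2.22. ATF4 was not in the table.

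Immediate early genes, which respond within minutes to growth signals and stress, had medians of 0.59 (7 higher, 4 lower) and 1.54 (8 higher, 3 lower) over 11 tested members, ATF3 among them. JUN differed by 2.68 (SE 0.97, adjusted p = 0.478, limma) in the narrower set, with 33.1, 3.99, 110.9 and 20.4 FPKM in 5 nM replicates 1 to 4 and 0 in replicate 6, against 1.31 and 32.4 FPKM in 2 nM replicates 5 and 6 and 0 in 2 nM replicates 1 to 4. Outside that set JUN was at 942.35 FPKM in 2 nM replicate 8. The 3 members on the lower side there were KLF6 at -2.56 (adjusted p = 0.843), FOSL1 at -2.06 (0.834) and ZFP36 at -1.64 (0.797). In the narrower set a fit of the 2 doses alone tested only genes detected in 8 or more of their rafts. ATF3, detected in 1 raft at 2 nM and 4 at 5 nM, and JUN, in 2 and 4, fell short of that. Only KLF6, FOSL1 and MYC of the list were left, and their median of -2.06 is the difference of FOSL1.

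None of the p53 targets passed, of 23 tested in the wider set and 22 in the narrower set. Their medians were 0.07 and 0.36, and 0.42 and 0.63 after quantile normalization, beside all-gene medians of -0.30 and -0.22, and 0.03 and 0.03. CDKN1A, the inhibitor p21, was at 46.4 to 218.8 FPKM in 2 nM replicates 1 to 6, and at 207.2, 461.9, 589.3 and 460.9 FPKM in 5 nM replicates 1 to 4 and 0 in replicate 6. Of the 5 rafts at 5 nM, 4 thus lay above 5 of the 6 at 2 nM, and 1 lay below all of them. The difference was 0.59 (SE 1.34, adjusted p = 0.978, limma) in the narrower set and -0.48 (SE 1.66, adjusted p = 0.987) in the wider set, which turned to 1.05 after quantile normalization. Without 5 nM replicate 6 the narrower set gave 2.32, with no adjusted p under 0.05 without any single raft. The secreted stress factor GDF15 was at 339.6 and 101.8 FPKM in 2 nM replicates 3 and 6 and at 42.7, 297.7 and 61.2 FPKM in 5 nM replicates 1, 2 and 4 (difference 1.41, SE 1.38, adjusted p = 0.951).

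Regulators of apoptosis had medians of 0.06 over 21 tested members (11 higher, 10 lower) and 0.13 over 20 (11 higher, 9 lower), and none passed. PMAIP1, the BH3-only protein NOXA, was at 46.3, 38.45 and 115.2 FPKM in 2 nM replicates 3, 5 and 6 and at 0 in the other 5. At 5 nM it was at 261.2, 130.9, 1181, 1422, 50.1 and 143.2 FPKM in replicates 1, 2, 3, 4, 5 and 8. It differed by 4.41 (SE 1.43, adjusted p = 0.674, limma) in the wider set and by 4.20 (SE 1.62, adjusted p = 0.549) in the narrower set. BIRC2, an inhibitor of apoptosis, stood at 45.0 to 196.05 FPKM in the 5 nM rafts of the narrower set, above the 0 to 43.5 FPKM of the 2 nM rafts (difference 3.76, SE 1.35, adjusted p = 0.477). On the lower side of that set, BAD differed by -2.89 (adjusted p = 0.781), FADD by -2.28 (0.800) and BID by -2.27 (0.869), by limma.

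Proteasome subunits had the lowest list median in the wider set, -2.33 over 31 members with 30 lower, and -1.39 with 27 lower in the narrower set (-2.04 and -1.21 after quantile normalization), and none passed. PSMB4, a subunit of the core, was at 161.8 to 580.0 FPKM in 2 nM replicates 1 to 6 and at 0, 200.15, 0, 107.2 and 1.90 FPKM in the 5 nM rafts of the narrower set (difference -5.06, SE 1.37, adjusted p = 0.277, limma). The 13 tested heat shock genes had medians of -1.44 and -0.96, with HSPA8 passing in the narrower set. HSP90AB1, in contrast, differed by 0.64 (adjusted p = 0.973) there, at 384.8 to 1028 FPKM at 5 nM and 188.1 to 767.8 FPKM at 2 nM.

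Of 56 tested genes of oxidative phosphorylation 50 were lower in the wider set (median -1.55) and 39 in the narrower set (median -0.66). Of 69 ribosomal protein genes 53 and 56 were lower (medians -1.09 and -0.55). Quantile normalization gave medians of -1.28 and -0.51 for oxidative phosphorylation and -0.89 and -0.37 for ribosomal proteins. None of either list passed. Among the other lists, NF-kB and inflammatory genes had medians of 0.52 (20 tested) and 1.04 (19), replication-dependent histones 0.35 (11) and 1.48 (10), interferon-stimulated genes 0.37 (36) and 0.48 (34), lysosome and autophagy genes -0.13 (25) and 0.76 (25), and NRF2 targets -0.86 and -0.69 (18 each). Nucleotide synthesis genes had medians of -1.16 and -0.69 (28 each), glycolysis genes -0.87 and -0.41 (22 each), cholesterol synthesis genes -0.35 and -0.15 (19 each), and replication stress and DNA repair genes -0.60 (37) and -0.32 (36). Drug efflux pumps had 0.23 and 0.02 (4 each) and mesenchymal markers -0.17 and 0.15 (8 each). No member of these lists passed in either set.

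Epithelial and ductal markers (27 tested, none passing) had medians of -0.79 and -0.22, which became -0.11 and 0.57 after quantile normalization. KRT18 stood at 1338 to 3519 FPKM in the 2 nM rafts of the narrower set and at 1337, 1547, 342.3, 352.7 and 618.5 FPKM at 5 nM, a difference of -1.89 (SE 0.62, adjusted p = 0.382, limma). The summed level of the blood cell list of 14 measured genes ran from 0 to 161.2 FPKM at 2 nM and from 0 to 451.25 at 5 nM, that of the 11 fibroblast genes from 0 to 110.5 and 0 to 190.0, that of the 7 endothelial genes from 0 to 8.15 and 0 to 31.97, and that of the 10 keratinocyte genes from 0 to 389.0 and 0 to 664.1 FPKM. Of these lists 1, 2, 1 and 2 members were tested in the wider set and 1, 1, 1 and 2 in the narrower set, and none passed. Genes that an earlier look at these data had tied to blank libraries summed to a median of 984.25 FPKM at 2 nM and 2454 FPKM at 5 nM in the wider set, with a highest sum of 58822 FPKM at 5 nM, and to at most 22200 FPKM in water. Their median difference was 0.72 over 14 genes in the wider set and 0.21 over 13 in the narrower set. Their part in the results was not tested.

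**Figure D4:**
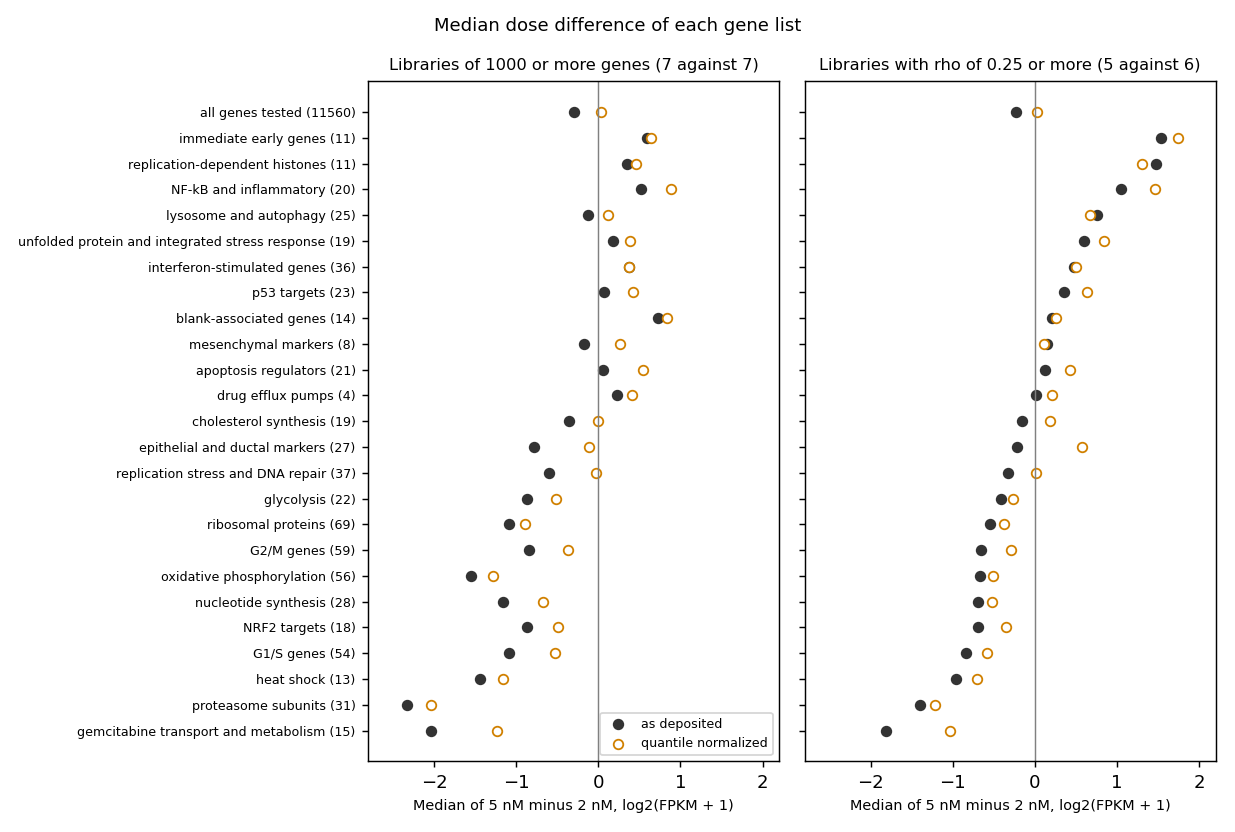
Median over each gene list of the 5 nM minus 2 nM difference in log2(FPKM + 1), for rafts of 1000 or more genes (left) and for rafts with rho of 0.25 or more (right), as deposited (black) and after quantile normalization (open orange); numbers beside names are genes tested in the wider set. Proteasome (-2.33) and gemcitabine genes (-2.04) lie lowest on the left and immediate early genes (1.54) highest on the right, beside medians over all genes of -0.30 and -0.22.

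Rafts scored as nonproliferative gave a comparison of the same doses, 7 against 7 in the wider set and 3 against 3 in the narrower set. In the wider set 0 genes passed in limma, and in the narrower set 23 did (0.228%). In the wider set 606 of 11560 tested genes had an unadjusted p under 0.05, close to the share of 0.05 expected by chance. PPDPF differed by -0.76 (adjusted p = 0.956) and -1.78 (0.575) there, C10orf10 by -1.72 (0.925) and -4.01 (0.267), and ATF3 by 3.19 (0.731) and 4.18 (0.207), all by limma. Of the genes called lower in proliferative rafts, HSPA8 differed by 1.24 and 0.11, PFN1 by 2.75 and -0.47 and WDR4 by -0.41 and -0.96, none passing. ATF3 was detected at 5 nM in 4 of 8 nonproliferative rafts, up to 182.8 FPKM, and in 1 of 8 at 2 nM. The test of the difference between the classes had no gene past the threshold in the wider set, where the smallest adjusted p was 0.968. There 323 of 11560 tested genes had an unadjusted p under 0.05, below the share of 0.05 expected by chance. In the narrower set 3 of 10083 genes (0.0298%) passed it, which were APRT, NDUFS8 and TAGLN2. For C10orf10 the adjusted p of that test was 0.0505 in the narrower set.

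APRT, which salvages adenine, differed by 0.26 between doses in proliferative and by -7.41 in nonproliferative rafts of the narrower set. NDUFS8, a subunit of complex I, differed by 0.69 and -8.63, and the actin-binding TAGLN2 by 1.61 and -5.79. NDUFS8 was listed at 0 in all 8 nonproliferative rafts at 5 nM. In proliferative rafts at 5 nM it was detected in 6 of 8, up to 1074 FPKM.

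Each dose was also set beside proliferative rafts treated with saline, which both comparisons share. The 5 nM rafts here are those of the comparison with 2 nM, so the 2 results are not independent. In the narrower set HSPA8 differed from saline by -5.43 at 5 nM (adjusted p = 0.0025) and by -0.09 at 2 nM, PFN1 by -2.96 (0.0025) and -0.46, RAN by -5.07 (0.0432) and -0.54, and ATF3 by 6.13 (0.0155) and 0.30, by limma. PPDPF differed by 3.99 (adjusted p = 0.146) at 5 nM and by -1.92 at 2 nM, and C10orf10 by 5.17 (0.132) and -1.36. At 5 nM 8 genes in the wider set (0.0692%) and 4 in the narrower set (0.0397%) passed against saline in limma. At 2 nM 0 did in either set. There 440 of 11560 and 275 of 10083 tested genes had an unadjusted p under 0.05, below the share of 0.05 expected by chance.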

How the data were processed

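The authors deposited a table of FPKM values, estimated with RSEM against hg19 per the submitters' processing notes. Per the labels, cDNA and libraries came from the ClonTech SMARTer kit and Nextera XT. The table has 30504 rows, 27118 distinct names and values of 0 in 82.4% of cells. Column totals run from 339644 to 817990. It holds no counts, so depth is unknown.

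log2(FPKM + 1) was compared in R 4.3.3 with the trend method of limma 3.58.1 (p-values two-sided, adjusted after Benjamini and Hochberg, called under 0.05), in 1 fit of the 8 groups of the gemcitabine experiment (64 libraries). The fit used genes at FPKM of 1 or more in at least 8 libraries. The 52 libraries of 1000 or more genes formed the wider set and the 34 that also had rho of 0.25 or more the narrower set. The fit was also run on simulated normal values with known shifts. Those values were raised off 0 and given a smaller spread than the data. That run therefore cannot show how the fit behaves with the many zeros here. Permutation tests used scipy 1.17.1 under Python 3.11.15; tables used pandas 2.3.3 and figures matplotlib 3.10.9.

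Groups came from the labels. Members and lists were chosen with earlier results of these data known. The genes named were, per set, up to 10 passing per direction by size, or the 5 with the smallest p where fewer than 5 passed, detected in at least 0.5 of the rafts of the higher dose, up to 4 passing members per list, and 15 genes whatever their p. Names that occur more than once, or that no coding gene carries, were passed over. In the lists, a name on several rows was read from the row highest in bulk. Other genes named were chosen after their values were seen. One gene that the rule names is not reported here. Alternatives are listed in the closing section.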

Additional observations from a re-analysis of the deposited data

Results flagged for a closer look

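Within a dose, single rafts stood apart in genes that passed, by a gap test at the 95% level, which marks about 1 in 20 groups by chance. That rate does not hold at 2 nM, where the other rafts are tied at 0 and any value above 0 is marked. PPDPF was at 1.49 on the log2(FPKM + 1) scale in 2 nM replicate 3, where the other 2 nM rafts of both sets were at 0, and at 0 in 5 nM replicate 5, where the other 5 nM rafts of the wider set were above it. ATF3 was at 5.06 in 2 nM replicate 6 among rafts at 0, and at 0 in 5 nM replicate 6 among rafts above it, in the narrower set.

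The dose difference differed between proliferative and nonproliferative rafts of the narrower set in 3 genes, by limma's test of that difference. The signed difference in proliferative rafts minus that in nonproliferative rafts was 7.39 for TAGLN2 (adjusted p = 0.048), 9.32 for NDUFS8 (0.048) and 7.67 for APRT (0.047). In size the dose difference was larger in nonproliferative rafts, of which there were 3 at each dose, where all 3 genes were lower at 5 nM. TAGLN2 was also at 8814 FPKM in a water library and at 35065 FPKM in proliferative 5 nM replicate 5, which is not in that set.

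HSPA8, lower at 5 nM in the narrower set, was at 24051.8 FPKM in 5 nM replicate 7, a raft with 334 genes that entered no comparison, against at most 914.3 FPKM in water.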

How the results depend on the processing

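Fewer than 1000 genes or a low rho with bulk limited 5 of the 16 rafts. In the wider set 2 genes passed. The count was 0 with only the 2 dose groups, 0 with libraries of 3000 or more genes, 0 by exact permutation per gene (373 unadjusted, limma 643), and 1 with log2(FPKM + 0.1), with detection in 16 libraries, with quantile normalization and with all 64 libraries; leaving out 1 raft gave 0 to 3. In the narrower set 5 passed. The count was 0 with only the 2 groups, 1 with log2(FPKM + 0.1), 1 without a filter on low values, 3 with detection in 16 libraries, 0 by exact permutation (476 unadjusted) and 35 with rho of 0.4 or more (17 higher and 18 lower, 3 rafts at 5 nM). Leaving out 1 raft gave 0 to 7. The exact permutation p cannot go below 0.000583 in the wider set and 0.00216 in the narrower set. After adjustment a gene could thus pass that test only together with many others. With only the 2 groups, PPDPF, C10orf10 and ATF3 were detected in too few rafts of the narrower set to be tested. Between classes 0 genes passed in the wider and 3 in the narrower set. Rescaling to 1 total, genes detected as a covariate, array weights and, added after seeing the data, library GC content as a covariate kept counts within 1.5 times.

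With the replicate number as a block (2 groups), 0 genes passed in the wider set and 7 in the narrower set, all lower at 5 nM, with PFN1 as the gene shared with the 5. Same-numbered rafts share an index pair. Their deviations correlated between -0.19 and -0.01 in 6 pairs of the wider set, and none correlated best with its own number. Whether same-numbered rafts shared anything beyond number and index pair was not tested further. Paired by number, the exact p was 0.664 for genes detected (-978.4) and 0.266 for rho (-0.154). Leaving out 1 raft gave -1782 to -296.1 genes and -0.226 to -0.105 in rho; both kept their sign and missed the threshold in every alternative run.

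Signs turned in genes far from the threshold, and the cause was not tested. In the wider set SLC29A1 was 0.19 with genes detected as a covariate, CDKN1A 1.05 with quantile normalization, 0.00049 with the covariate and 0.052 with 3000 or more genes, GDF15 -0.91 with array weights, and MKI67 0.10 and 0.11 with quantile normalization and the covariate. In the narrower set SLC29A1 was 0.26 with log2(FPKM + 0.1), 0.0075 at 1 total, 0.43 with the covariate, 0.31 with GC content and 1.97 with rho of 0.4. CDKN1A was -0.0553 with log2(FPKM + 0.1). MKI67 was 0.25, 0.18, 0.13 and 0.83 and CDK1 0.055, 0.14, 0.46 and 2.11 with quantile normalization, the covariate, GC content and rho of 0.4. TYMS was 0.56 with GC content and 1.21 with rho of 0.4, where RRM2 was 0.20 and TOP2A 0.46. Leaving out 1 raft gave, in the wider set, SLC29A1 -1.10 to 0.22, CDKN1A -1.38 to 0.34, GDF15 -0.26 to 1.69, MKI67 -0.97 to 0.15, and in the narrower set TYMS -1.22 to 0.12, SLC29A1 -0.77 to 0.70, MKI67 -1.004 to 0.39, CDK1 -1.32 to 0.56.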
